A study of Mus musculus with 12 samples.

Results

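Collagen genes were followed in primary mouse embryonic fibroblasts (MEFs), the cells that grow out of minced mouse embryos. The members were all protein-coding genes whose mouse symbol has the form Col, a number, the letter a and a number, found by matching Ensembl gene identifiers to GENCODE release M21. This rule gave 44 genes, all of them among the 37991 gene identifiers in the count tables. A gene was tested when its counts passed the filter of edgeR for low counts, and 43 of the 44 collagen genes were among the 15327 genes tested. The gene left out was Col13a1, which had at most 3 counts in 11 of the 12 samples.

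Groups were wild-type (WT) FVB MEFs and FVB MEFs homozygous for the E2f1 3KR/3KR knock-in (3KR), in which 3 lysines of E2F1 that become acetylated after DNA damage are replaced by arginines. Both genotypes were isolated from embryos at day 13.5, grown in low oxygen, seeded at passage 3, and either left untreated or given neocarzinostatin (NCS), a radiomimetic drug that breaks DNA, at 250 ng/ml for 3 h. Each of the 4 groups had 3 samples. The labels do not say whether these came from separate embryos or cultures, so p-values measure the spread between these samples, which may be technical.

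Collagens are secreted or membrane proteins in which 3 chains wind into a triple helix, and each chain has a gene of its own. Fibrillar collagens (types I, II, III, V, XI, XXIV and XXVII) assemble into the banded fibers of skin, bone, tendon and cartilage, while type IV forms the sheet-like network of basement membranes. Type VI makes beaded filaments near cells, and FACIT collagens (fibril-associated collagens with interrupted triple helices) sit on the surface of fibrils. Types VIII and X build hexagonal networks, multiplexins (types XV and XVIII) lie in basement membrane zones, type VII forms the fibrils that anchor epithelium to the dermis, and types XIII, XVII, XXIII and XXV span the plasma membrane. Fibroblasts are the main makers of types I, III, V and VI.

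Counted reads per sample ranged from 33203757 to 45279321, with a median of 37623687, and 3 counts corresponded to 0.0663 to 0.0904 CPM. E2f1 mRNA was not called between genotypes without treatment (log2 fold change -0.03 ± 0.061, edgeR FDR 0.702), which does not check a change of codons. Cdkn1a, a p53 target, rose after NCS in both genotypes, with log2 fold changes of 1.18 in wild-type and 1.34 in 3KR MEFs. Wild-type replicate 3 stood apart in both treatments: the chi-square statistic per gene was 7.39 to 9.19 for its pairs with the other replicates of its group and 2.03 to 2.30 for every other pair of replicates. Xist was at 30590.1 to 35635 normalized counts in every 3KR sample and 32.3 to 62.5 in every wild-type sample, while Y-linked Ddx3y was at 16.2 or less in every 3KR sample and 5370.3 to 5822 in every wild-type sample. The samples thus differed in sex as well as in genotype, so genotype and sex cannot be told apart in any comparison between genotypes below.

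Promoter sequences are shown for the chains that results below turn on. Col4a1 and Col4a2, the main chains of basement membrane collagen, lie head to head on chromosome 8, and the windows of 250 bases before to 50 bases after their RefSeq starts (GRCm38.p6) share 78 bases, which are in capitals in both. The Col4a1 window is chr8:11312777-11313076 on the minus strand and the Col4a2 window is chr8:11312555-11312854 on the plus strand.
Col4a1: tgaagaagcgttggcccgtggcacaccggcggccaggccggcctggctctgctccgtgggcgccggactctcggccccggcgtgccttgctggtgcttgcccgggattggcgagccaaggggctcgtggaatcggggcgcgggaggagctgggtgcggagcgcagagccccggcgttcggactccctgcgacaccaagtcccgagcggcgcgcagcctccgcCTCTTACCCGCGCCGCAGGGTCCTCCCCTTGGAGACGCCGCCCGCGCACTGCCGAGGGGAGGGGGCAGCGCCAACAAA
Col4a2: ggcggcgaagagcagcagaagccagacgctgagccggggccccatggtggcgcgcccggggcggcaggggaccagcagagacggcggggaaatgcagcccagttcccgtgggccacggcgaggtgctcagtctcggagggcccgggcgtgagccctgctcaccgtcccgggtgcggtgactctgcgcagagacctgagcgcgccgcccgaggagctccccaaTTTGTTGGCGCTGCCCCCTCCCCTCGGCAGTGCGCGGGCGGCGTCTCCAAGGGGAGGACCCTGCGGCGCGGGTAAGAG
The windows of the type VI chains were separate. They were chr10:76725995-76726294 for Col6a1, chr10:76623581-76623880 for Col6a2 and chr1:90843922-90844221 for Col6a3, all on the minus strand, and capitals mark matches to the CCAAT box (CCAAT) or the GC box (GGGCGG) on either strand.
Col6a1: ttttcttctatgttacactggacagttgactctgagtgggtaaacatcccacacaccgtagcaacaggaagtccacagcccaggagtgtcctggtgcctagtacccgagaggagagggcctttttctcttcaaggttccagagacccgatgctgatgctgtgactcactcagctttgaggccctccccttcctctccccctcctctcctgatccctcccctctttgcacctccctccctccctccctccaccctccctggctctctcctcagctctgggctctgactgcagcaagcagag
Col6a2: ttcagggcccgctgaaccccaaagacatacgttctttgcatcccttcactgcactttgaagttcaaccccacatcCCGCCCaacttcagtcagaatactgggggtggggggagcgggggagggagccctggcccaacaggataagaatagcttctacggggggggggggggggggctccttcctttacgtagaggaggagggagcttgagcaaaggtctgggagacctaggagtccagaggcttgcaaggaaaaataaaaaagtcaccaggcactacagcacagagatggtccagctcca
Col6a3: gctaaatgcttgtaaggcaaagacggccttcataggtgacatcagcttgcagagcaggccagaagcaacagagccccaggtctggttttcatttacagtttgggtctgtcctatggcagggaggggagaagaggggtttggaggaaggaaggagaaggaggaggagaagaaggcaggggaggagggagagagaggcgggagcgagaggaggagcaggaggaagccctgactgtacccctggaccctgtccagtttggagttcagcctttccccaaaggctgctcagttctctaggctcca
The Col6a2 window shown held 1 such match, a GC box on the other strand, and those of Col6a1 and Col6a3 held 0. A further Col6a2 window, chr10:76623355-76623654, which is not shown, also held a GC box. Windows were given for 35 of the collagen genes (38 windows). The words TTTCCCGC, TTTCGCGC, TTTGCCGC and TTTGGCGC, which match the binding site of E2F factors, were searched on both strands and were found in 1 collagen window, that of Col17a1, or 2.63%, against 2.26% of all 32851 windows. The CCAAT box was in 34.2% of collagen windows and 37.4% of all windows, and the TATA box word TATAAA in 13.2% and 13.6%. The GC box word was in 60.5% of collagen windows and 35.7% of all windows. Each word was counted on its own, also where it overlapped another, and a match is letters in a window and not a measured binding site.

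Levels were compared between genes only per length, as RPKM, the reads of a gene scaled to the kilobases of its merged exons and to the counted reads of the library. In untreated wild-type MEFs the type I chains stood highest, with Col1a1 at 2498 ± 20.8 RPKM and Col1a2 at 1160.3 ± 14.8 (SD, n = 3). They were followed by Col3a1 at 777 ± 5.77, Col4a1 at 503 ± 11.3, Col5a2 at 493 ± 15.8 and Col5a1 at 485 ± 13.6. Col4a1, Col5a2 and Col5a1 differed by less than their SDs add up to, so the order of these 3 is not resolved. Next came Col4a2 at 360.3 ± 8.04, Col6a1 at 285 ± 7.62, the FACIT chain Col12a1 at 159 ± 8.23 and Col18a1 at 112 ± 0.546. Below these, levels of the tested genes fell to 0.0139 RPKM for Col4a4, whose partner Col4a3 was at 0.0201, and both are chains best known from kidney and other specialized basement membranes. Merged exons overstate the length of genes with retained introns or alternative ends. Over the length of the principal transcript, Col1a2 was at 2696 RPKM, close to 2765 for Col1a1, Col3a1 was at 1371, and Col6a2 was at 229 in place of 109.

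**Figure D1:**
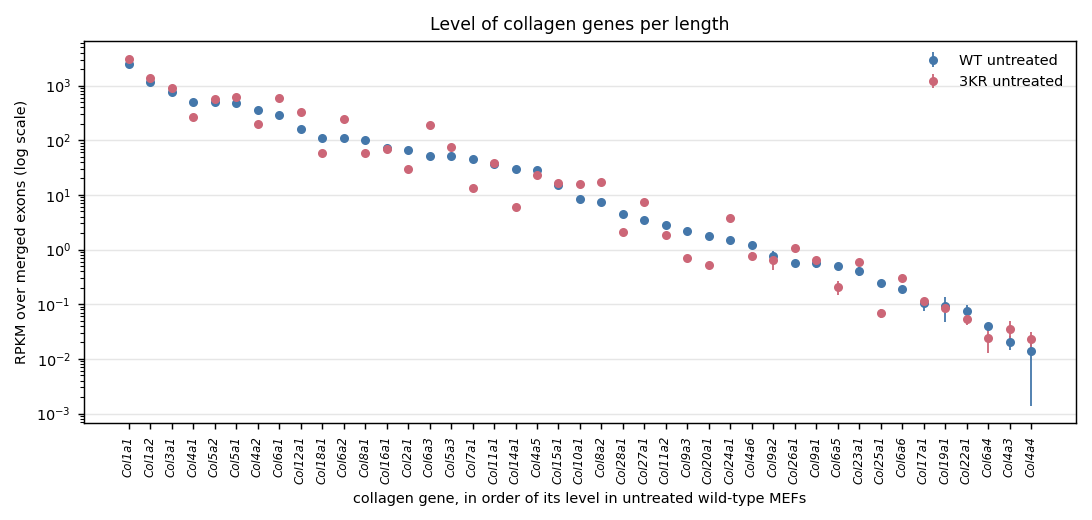
Mean RPKM over merged exons (log axis) of the 43 tested collagen genes in untreated wild-type and 3KR MEFs, with SD over 3 samples, ordered by the wild-type level. Col1a1 stands at the top at 2498 RPKM in wild-type and 3115 in 3KR MEFs, while Col14a1 lies lower in 3KR (5.91 against 29.8) and Col6a3 higher (187 against 52.2).

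Collagen mRNA as a whole took 6.33% ± 0.0854 (SD, n = 3) of counted reads in untreated wild-type MEFs and 7.56% ± 0.105 in untreated 3KR MEFs. After NCS these shares were 6.43% ± 0.0384 and 7.20% ± 0.125. Fibrillar genes held almost the same part of the collagen reads in both genotypes, 77.1% ± 0.0834 and 77.2% ± 0.181 without treatment. The makeup of the rest differed. Basement membrane genes held 10.0% ± 0.0983 of collagen reads in wild-type and 4.63% ± 0.0214 in 3KR MEFs, beaded filament genes 4.40% ± 0.160 and 9.10% ± 0.0501, and FACIT genes 4.96% ± 0.150 and 7.39% ± 0.117. For each of these 3 classes the ranges of the untreated groups did not overlap. Of the 9 FACIT genes, only Col12a1 was called higher in untreated 3KR MEFs (edgeR FDR under 0.05), and 4 were called lower. In bulk RNA, fewer cells of a type and less RNA per cell cannot be told apart.

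The comparison of genotypes without treatment asks how 3KR and wild-type MEFs, which also differed in sex, differ when undamaged. Of the 43 collagen genes tested, 17 were higher and 16 lower in 3KR than in wild-type MEFs (edgeR quasi-likelihood test, FDR under 0.05). That is 33 called genes, or 76.7%, where 45.7% of all tested genes were called (22.1% higher and 23.6% lower). The median size of the log2 fold change was 0.78 over the collagen genes and 0.18 over all tested genes. Collagen genes moved in both directions, and no test of direction by class was run. Below, overlap of groups is only a description of single genes, since its share over all tested genes was not counted. By class, 4 of 6 basement membrane genes were lower and the other 2 were not called, 4 of 6 beaded filament genes were higher and 1 lower, 8 of 11 fibrillar genes were higher and 2 lower, and among 9 FACIT genes 1 was higher and 4 lower. Of the 3 hexagonal network genes 2 were higher and 1 lower, and the transmembrane class and the remaining pair, Col26a1 and Col28a1, each had 1 higher and 1 lower. Of the 2 multiplexins 1 was lower, and the anchoring fibril gene was lower too. Without wild-type replicate 3, 34 genes were called, 18 higher and 16 lower.

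Markers of other cell types also differed between the genotypes, and their part in the collagen differences was not tested. Beside the counts below, 45.7% of all tested genes were called without treatment (22.1% higher and 23.6% lower). Of the 8 Schwann cell and neural crest markers, 6 were lower in 3KR MEFs, and their summed level was 8617 to 8862 normalized counts in untreated wild-type and 1805 to 1839 in untreated 3KR MEFs. All 7 macrophage markers were higher, with sums of 3623 to 4272 and 6920.3 to 7118. Of the 6 skeletal muscle markers 2, Des and Chrna1, were tested and both were lower, with sums over the 6 of 4623 to 4832 and 1601 to 1701. Myod1, Myog, Myf5 and Pax7 did not pass the filter for low counts, and Myf5 was at or under 3 counts in every sample. Fibroblast markers, which check the labelled cell type, were all present, and 8 of 9 were higher in 3KR MEFs and 1 lower, with sums of 214749.9 to 216478 and 242186 to 246648. Of the 7 endothelial markers 4 were tested and 1, Emcn, was lower. Endothelial markers summed to 219 to 238 and 191 to 205, with Cldn5 and Tie1 at or under 3 counts in every sample. Of the 6 epithelial markers 3 were tested, 2 higher and 1 lower. Their sums were 95.4 to 97.8 and 113 to 123, with Krt5 at or under 3 counts.

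**Figure D2:**
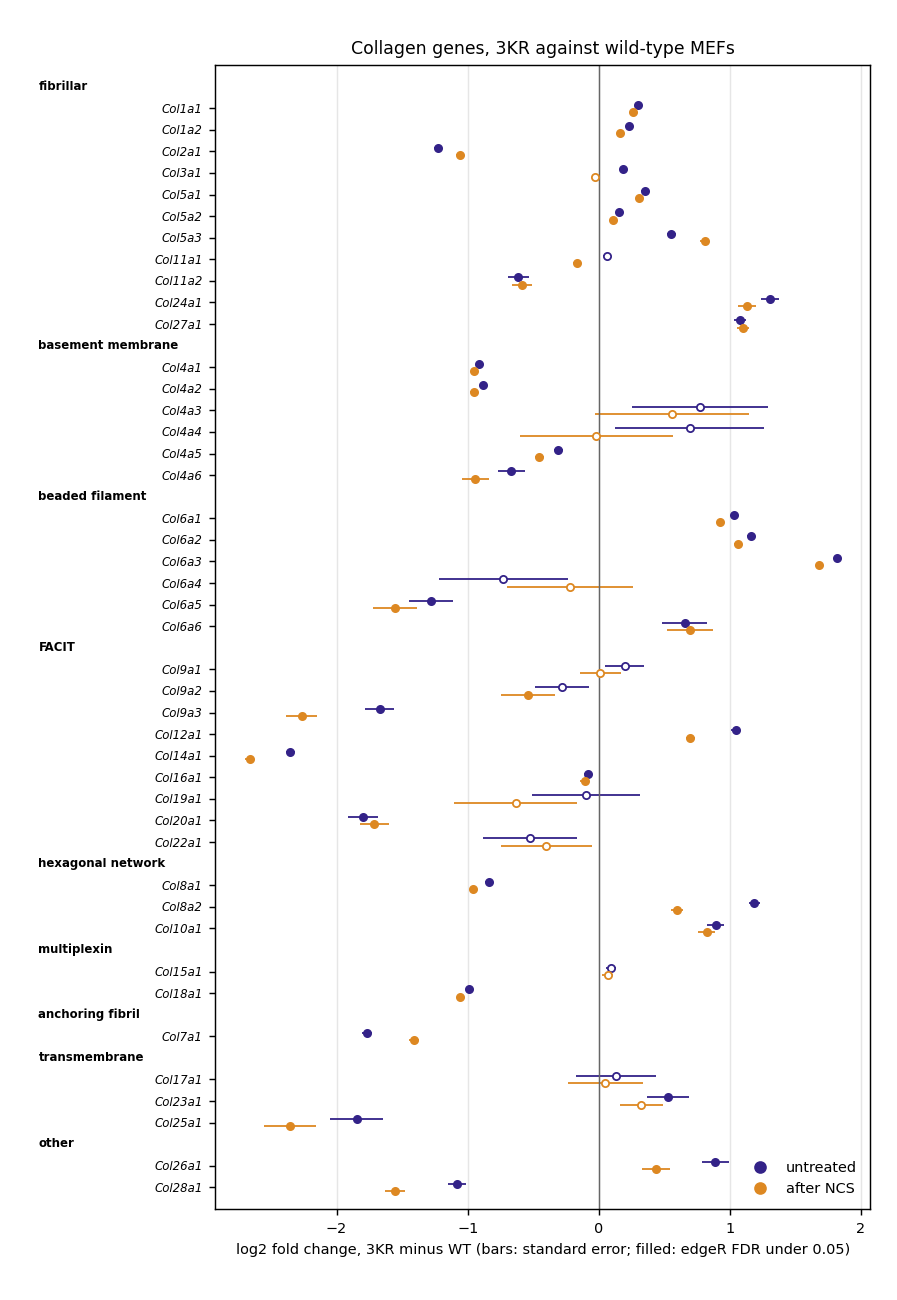
Log2 fold change of 3KR over wild-type MEFs for the 43 tested collagen genes by class, untreated and after NCS, with standard errors; filled points passed an edgeR FDR of 0.05. The points of the 2 treatments lie close together for most genes, and the called type IV chains lie left of 0 while Col6a1, Col6a2 and Col6a3 lie right of it.

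Type IV collagen was lower in 3KR MEFs. Col4a1 (chr8:11198423-11312826, GRCm38, minus strand) had normalized counts of 139157, 139170.3 and 146830.0 in the 3 untreated wild-type samples and 74570.3, 76952 and 75314 in the 3 untreated 3KR samples (log2 fold change -0.91 ± 0.024, edgeR FDR 1.45e-24). Col4a2 (chr8:11312805-11449287, plus strand) had 87947, 88792 and 93164 and 49105, 50019 and 48068 (log2 fold change -0.88 ± 0.025, edgeR FDR 9.58e-24). Every 3KR sample lay below every wild-type sample for both genes, at close to the same proportion. Their ratio, Col4a1 to Col4a2 counts, was 1.58, 1.57 and 1.58 in wild-type and 1.52, 1.54 and 1.57 in 3KR samples. The exons of this pair overlap by 22 bases on opposite strands, and the counting setting for strand is not given in the sources used here, so a small part of their reads may be shared.

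The X-linked pair Col4a5 and Col4a6, head-to-head genes for chains found in skin and smooth muscle basement membranes, was lower as well. Col4a5 had 7038, 7080.1 and 7699.9 normalized counts in wild-type and 5828, 5934 and 5902 in 3KR samples (log2 fold change -0.31 ± 0.034, edgeR FDR 3.82e-09). Col4a6 had 359.6, 325 and 415 and 259, 197 and 238 (log2 fold change -0.67 ± 0.10, edgeR FDR 2.55e-06). Neither gene's groups overlapped. Col4a3 and Col4a4, at 8.28, 5.07 and 9.31 and 3.31, 2.03 and 11.4 normalized counts in wild-type samples, did not pass the test at this depth.

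Type VI collagen was higher in 3KR MEFs in its 3 abundant chains. Col6a3, the large chain that completes the trimer, had 23381, 23919 and 23428 normalized counts in wild-type and 83342, 84028 and 83156 in 3KR samples, a 3.53-fold difference (log2 fold change 1.82 ± 0.025, edgeR FDR 1.04e-31). Col6a1 had 47332, 47696 and 46051 and 95921, 98616 and 95810.1 (log2 fold change 1.04 ± 0.026, edgeR FDR 5.17e-25), and Col6a2 34285, 34536 and 33531 and 75669.8, 78665 and 75800.1 (log2 fold change 1.16 ± 0.029, edgeR FDR 6.85e-25). All 3KR samples lay above all wild-type samples for the 3 chains. The chains did not move in step, since the ratio of Col6a3 to Col6a1 counts was 0.494, 0.501 and 0.509 in wild-type and 0.869, 0.852 and 0.868 in 3KR samples. The ratio of Col6a1 to Col6a2 moved less, from 1.38, 1.38 and 1.37 to 1.27, 1.25 and 1.26. Col6a5 and Col6a6, alternative chains that resemble Col6a3, were rare: Col6a5 had 196, 149 and 179 and 51.4, 71.8 and 92.7 normalized counts (log2 fold change -1.28 ± 0.17, edgeR FDR 1.89e-07), and Col6a6 71.2, 54.8 and 67.3 and 88.7, 107 and 111 (log2 fold change 0.65 ± 0.17, edgeR FDR 0.00207). Col6a5 was thus lower and Col6a6 higher, neither with overlapping groups. Col6a4 (log2 fold change -0.73 ± 0.49) did not pass.

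**Figure D3:**
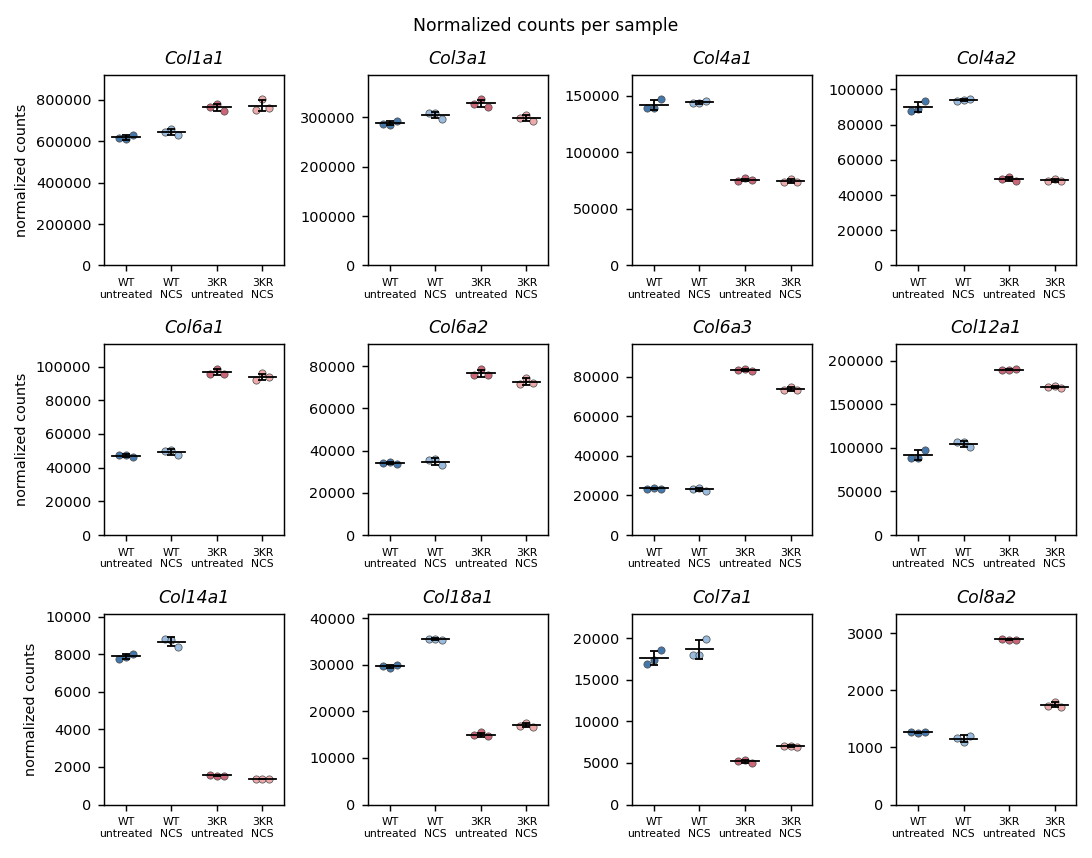
Normalized counts (axes from 0) of 12 collagen genes in each sample of the 4 groups; black lines are means and bars are SD over 3 samples. Col6a1, Col6a2, Col6a3, Col12a1 and Col8a2 are higher and Col4a1, Col4a2, Col14a1, Col18a1 and Col7a1 lower in 3KR than in wild-type samples in both treatments, with no overlap.

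Most fibrillar genes were higher in 3KR MEFs, and the type I and III chains differed little. Col1a1, the gene of the pro-alpha1 chain of type I collagen, had 615314, 610542 and 629900.1 normalized counts in wild-type and 765081, 782547 and 747241 in 3KR samples (log2 fold change 0.30 ± 0.023, edgeR FDR 3.92e-11). Col1a2 had 538199, 536272 and 557322 and 637189, 647789.7 and 633695 (log2 fold change 0.23 ± 0.019, edgeR FDR 9.39e-12), and Col3a1, whose product joins type I in the fibrils of elastic tissues, 285306, 284848 and 293095 and 327105, 335787 and 320072 (log2 fold change 0.18 ± 0.022, edgeR FDR 3.55e-08). The groups did not overlap for these 3 genes, although the largest of their differences, for Col1a1, was 1.23-fold. The type V chains, which regulate how fibrils start and how thick they grow, were all higher, with log2 fold changes of 0.35 ± 0.024 for Col5a1, 0.16 ± 0.024 for Col5a2 and 0.55 ± 0.034 for Col5a3. Col24a1 had 438, 423 and 425 and 1049, 1126 and 1028 normalized counts (log2 fold change 1.31 ± 0.066, edgeR FDR 5.99e-17), and Col27a1 1639.5, 1781 and 1699 and 3495, 3753 and 3577 (log2 fold change 1.08 ± 0.046, edgeR FDR 7.14e-19), so that both of these minor fibrillar genes were over 2 times higher in 3KR samples, without overlap.

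Of the type II and XI genes, Col2a1 and Col11a2 went the other way and Col11a1 did not pass. Col2a1, the major cartilage collagen, had 23353, 23449 and 23749.6 normalized counts in wild-type and 9995, 10357 and 9903 in 3KR samples (log2 fold change -1.23 ± 0.031, edgeR FDR 1.04e-24). Col11a2 had a log2 fold change of -0.61 ± 0.078 (edgeR FDR 8.71e-08). Col11a1, with 17055, 17492 and 18397 and 18701, 18284 and 18416, had overlapping groups and did not pass (edgeR FDR 0.0954). Of the 9 chondrocyte markers, 6 were tested, 3 higher and 2 lower in 3KR MEFs, where 45.7% of all tested genes were called. Acan, the cartilage proteoglycan aggrecan, was higher (log2 fold change 2.68 ± 0.047) and Sox5 lower (-0.84 ± 0.08). The sum of the 9 markers was 2381 to 2709.9 in wild-type and 6317 to 6479 in 3KR samples, with Cnmd and Snorc at or under 3 counts in every sample.

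FACIT collagens held the widest range. Col14a1, whose product binds fibrils and decorin, had 7771, 7854 and 8040.4 normalized counts in wild-type and 1566, 1543 and 1539 in 3KR samples (log2 fold change -2.35 ± 0.035, edgeR FDR 6.81e-31). Col12a1, its close relative, which links fibrils in tendon and muscle, had 88801, 87928 and 97939.8 and 189168, 189534 and 190394 (log2 fold change 1.05 ± 0.033, edgeR FDR 9.20e-16). The relatives moved apart, and the ratio of Col12a1 to Col14a1 counts was 11.4, 11.2 and 12.2 in wild-type and 121, 123 and 124 in 3KR samples. A pair of rarer FACIT genes was also lower. Col9a3 had 339.7, 328 and 304 and 95.7, 108 and 103 normalized counts (log2 fold change -1.67 ± 0.11, edgeR FDR 6.32e-14), and Col20a1 365, 325 and 335 and 80.6, 108 and 107 (log2 fold change -1.80 ± 0.12, edgeR FDR 2.35e-14). Col9a3 shares 234 exon bases with Tcfl5 on the other strand, so some of its reads may belong to that gene. The partners of Col9a3 in type IX collagen did not pass, with log2 fold changes of 0.20 ± 0.15 for Col9a1 and -0.28 ± 0.21 for Col9a2. Col16a1 had a small difference (log2 fold change -0.08 ± 0.032, edgeR FDR 0.0311) with overlapping groups, and the call was lost in 6 of 13 alternatives, among them the Wald test of DESeq2 (FDR 0.07) and the fit without untreated wild-type replicate 3 (FDR 0.12). Col19a1 and Col22a1, at 13.5 to 36.5 normalized counts in wild-type samples, did not pass.

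The remaining classes held single genes that differed strongly. Col7a1, the anchoring fibril collagen, had 16952, 17394 and 18538 normalized counts in wild-type and 5199, 5304 and 5045 in 3KR samples (log2 fold change -1.77 ± 0.038, edgeR FDR 5.29e-25). Col18a1, the basement membrane collagen whose C-terminal fragment is endostatin, had 29687, 29431 and 30001 and 14913, 15498 and 14684 (log2 fold change -0.99 ± 0.028, edgeR FDR 9.58e-24). Both were lower without overlap, whereas the other multiplexin, Col15a1, did not pass (log2 fold change 0.09 ± 0.04). The 2 chains of type VIII collagen, the hexagonal network collagen of Descemet's membrane and vessel walls, went in opposite directions. Col8a1 had 29792, 30781 and 30157 and 16979.5, 16952 and 16944 (log2 fold change -0.84 ± 0.028, edgeR FDR 7.98e-22), and Col8a2 1273, 1248 and 1266 and 2905, 2874 and 2888 (log2 fold change 1.19 ± 0.043, edgeR FDR 9.72e-21). The ratio of Col8a2 to Col8a1 counts was 0.0427, 0.0405 and 0.0420 in wild-type and 0.171, 0.170 and 0.170 in 3KR samples. Col10a1, the collagen of hypertrophic cartilage, was higher at 1963, 1791 and 1831 against 1049.7, 1053 and 889 (log2 fold change 0.89 ± 0.064, edgeR FDR 9.32e-12).

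Of the transmembrane collagens, Col25a1, a neuronal collagen, was lower, with 119, 112 and 132 normalized counts in wild-type and 26.2, 35.4 and 39.1 in 3KR samples (log2 fold change -1.85 ± 0.20, edgeR FDR 3.93e-09). Col23a1 was higher (log2 fold change 0.53 ± 0.16, edgeR FDR 0.0066), but not without untreated wild-type replicate 3 (log2 fold change 0.40, FDR 0.052). Col17a1, the hemidesmosome collagen of epidermis, did not pass (0.13 ± 0.31). Col28a1, known from Schwann cell basement membranes, was lower, at 845, 744 and 857 and 377, 398 and 385 (log2 fold change -1.08 ± 0.07, edgeR FDR 2.76e-14). Its relation to the Schwann markers above was not tested. Col26a1 was higher (log2 fold change 0.89 ± 0.10, edgeR FDR 1.28e-08). In all, 8 collagen genes were called in neither genotype comparison: Col4a3, Col4a4, Col6a4, Col9a1, Col15a1, Col17a1, Col19a1 and Col22a1.

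The same comparison after NCS asks whether the genotypes also differ once DNA is damaged. Again 33 of 43 collagen genes were called, 15 higher and 18 lower in 3KR MEFs, where 46.3% of all tested genes were called (22.6% higher and 23.7% lower). The median size of the log2 fold change was 0.70 over the collagen genes and 0.19 over all tested genes. Of these, 31 were called in both treatments, and all 31 kept their direction, 15 higher and 16 lower. The type IV chains stayed low, at -0.95 ± 0.024 for Col4a1 and -0.95 ± 0.025 for Col4a2, and the type VI chains high, at 0.93 ± 0.026 for Col6a1, 1.06 ± 0.029 for Col6a2 and 1.68 ± 0.025 for Col6a3 as log2 fold changes. Col14a1 (-2.66 ± 0.035), Col9a3 (-2.27 ± 0.12), Col25a1 (-2.36 ± 0.20) and Col28a1 (-1.56 ± 0.077) had more negative values after NCS than without it, and this change was itself called by the interaction contrast for all of them but Col25a1. Col3a1, with 308975, 307481 and 297189 normalized counts in wild-type and 298992, 304722 and 291608 in 3KR samples, overlapped between genotypes after NCS and was not called (edgeR FDR 0.294), and Col23a1 was not called either (0.33 ± 0.16). Col11a1 (-0.17 ± 0.029) and Col9a2 (-0.54 ± 0.21) were called after NCS only, the latter losing its call in 5 of 13 alternatives, for example under the Wald test of DESeq2 (FDR 0.061). Without wild-type replicate 3, 33 genes were called.

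The other called genes after NCS kept their direction. Among them the interaction contrast called a smaller difference than without treatment for Col8a2, Col12a1, Col2a1 and Col7a1 and a larger one for Col5a3. For Col6a3, given above, it also called a smaller difference. Among the higher ones, log2 fold changes were 0.26 ± 0.023 for Col1a1, 0.16 ± 0.019 for Col1a2, 0.31 ± 0.024 for Col5a1, 0.11 ± 0.024 for Col5a2, 0.81 ± 0.034 for Col5a3, 1.13 ± 0.068 for Col24a1 and 1.10 ± 0.047 for Col27a1. Col12a1 (0.70 ± 0.032), Col8a2 (0.60 ± 0.045), Col26a1 (0.44 ± 0.11), Col10a1 (0.82 ± 0.065) and Col6a6 (0.70 ± 0.18) completed this side. Among the lower ones were Col2a1 (-1.06 ± 0.031), Col11a2 (-0.58 ± 0.077), Col4a5 (-0.45 ± 0.034), Col4a6 (-0.94 ± 0.10), Col6a5 (-1.56 ± 0.17), Col20a1 (-1.71 ± 0.11), Col7a1 (-1.41 ± 0.037), Col8a1 (-0.96 ± 0.028), Col18a1 (-1.06 ± 0.028) and Col16a1 (-0.11 ± 0.032).

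The response to NCS itself was smaller than the difference between genotypes. In wild-type MEFs 12 collagen genes rose and 3 fell after NCS (15 of 43, or 34.9%), where 27.1% of all tested genes were called (14.5% up and 12.6% down). In 3KR MEFs 6 rose and 11 fell (17 of 43, or 39.5%), against 31% of all tested genes (15.8% up and 15.2% down). The median size of the log2 fold change was 0.12 in wild-type and 0.16 in 3KR MEFs, beside 0.13 and 0.14 over all tested genes. Without wild-type replicate 3 in both treatments, 22 genes were called in wild-type MEFs and 22 in 3KR MEFs. With only the 6 wild-type samples in the fit, 9 were called in wild-type MEFs, and without NCS-treated wild-type replicate 2, 10 were called.

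Col15a1 fell and Col18a1 rose in both genotypes, although these multiplexins are close relatives. Col15a1 had 3651, 3889 and 3436 normalized counts in untreated and 2656, 2916 and 2714 in NCS-treated wild-type samples (log2 fold change -0.41 ± 0.041, edgeR FDR 2.79e-09), and 3928, 3939 and 3883 and 2864, 2892 and 2928 in 3KR samples (log2 fold change -0.43 ± 0.041, edgeR FDR 6.00e-10). Col18a1 had 29687, 29431 and 30001 and 35666, 35638 and 35283 in wild-type (log2 fold change 0.25 ± 0.027, edgeR FDR 1.08e-08), and 14913, 15498 and 14684 and 16958, 17606 and 16673 in 3KR samples (log2 fold change 0.19 ± 0.027, edgeR FDR 2.90e-06). Treated and untreated samples did not overlap for either gene. Called in the same direction in both genotypes were also Col5a2 (0.12 in wild-type, 0.07 in 3KR), Col20a1 (0.26 and 0.35), Col27a1 (-0.18 and -0.15) and Col8a2 (-0.13 and -0.72), all as log2 fold changes. The calls of Col20a1 were lost in 6 of 14 alternatives in wild-type and in 8 of 14 in 3KR MEFs, and that of Col5a2 in 3KR MEFs in 4 of 14, each time by leaving out a single 3KR sample (FDR up to 0.11).

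**Figure D4:**
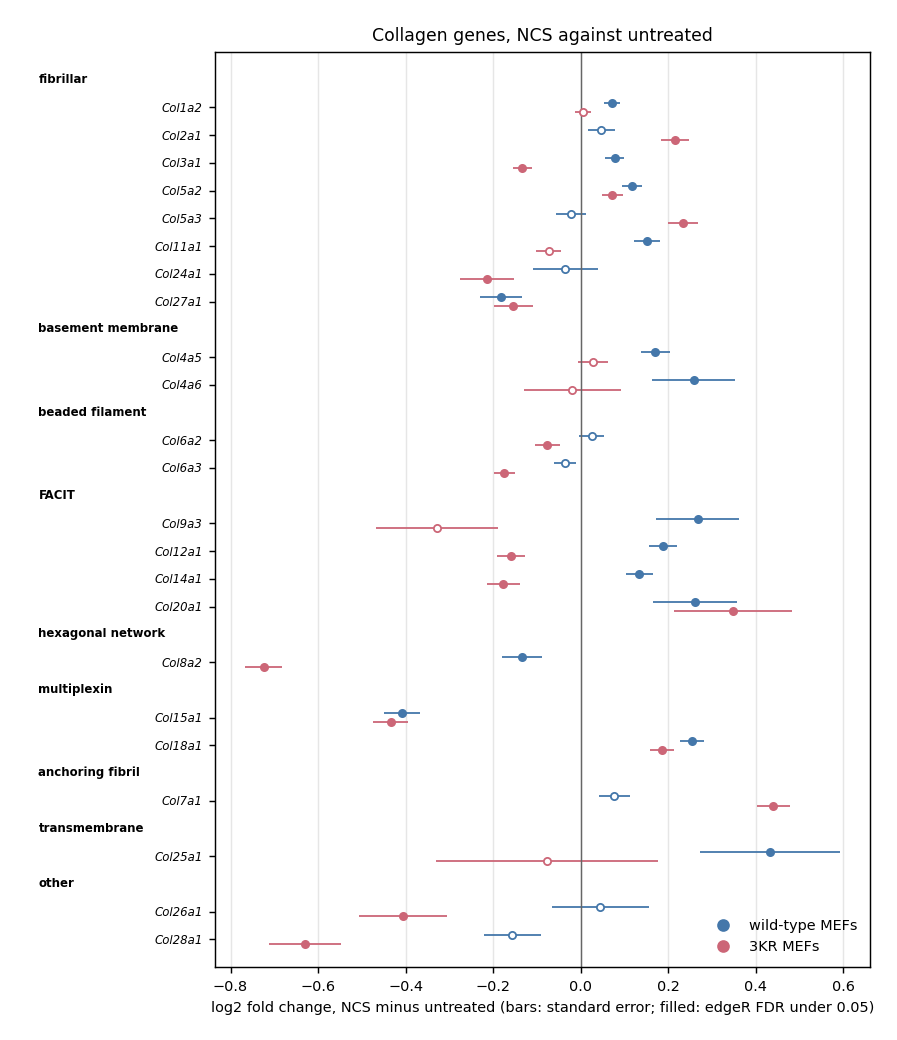
Log2 fold change of NCS over no treatment in wild-type and in 3KR MEFs for the 23 collagen genes called in either genotype, with standard errors; filled points passed an edgeR FDR of 0.05. Col15a1 lies left and Col18a1 right of 0 in both genotypes, while Col3a1, Col12a1 and Col14a1 lie right of 0 in wild-type and left of it in 3KR MEFs.

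In wild-type MEFs, 6 further collagen genes were called and all rose: Col1a2 (log2 fold change 0.07 ± 0.019), Col11a1 (0.15 ± 0.029), Col4a5 (0.17 ± 0.033), Col4a6 (0.26 ± 0.095), Col9a3 (0.27 ± 0.094) and Col25a1 (0.43 ± 0.16). Of these, Col4a6 lost its call in 8 of 14 alternatives, Col9a3 in 7, Col25a1 in 5 and Col1a2 in 1, while Col11a1 and Col4a5 kept theirs in all 14. In 3KR MEFs the 8 further genes were Col2a1 (0.22 ± 0.031), Col5a3 (0.23 ± 0.034) and Col7a1 (0.44 ± 0.038), which rose, and Col24a1 (-0.21 ± 0.062), Col26a1 (-0.41 ± 0.10), Col28a1 (-0.63 ± 0.083), Col6a2 (-0.08 ± 0.028) and Col6a3 (-0.17 ± 0.024), which fell. Col6a2 lost its call in 6 of 14 alternatives and Col24a1 in 1, without untreated 3KR replicate 2 (FDR 0.064), the sample without which Col27a1 also lost its call in 3KR MEFs (FDR 0.066). Several abundant chains did not pass in either genotype, with log2 fold changes of 0.06 ± 0.023 in wild-type and 0.02 ± 0.023 in 3KR MEFs for Col1a1, 0.02 ± 0.023 and -0.02 ± 0.024 for Col4a1, and 0.07 ± 0.026 and -0.04 ± 0.025 for Col6a1.

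Collagen genes differ widely in genomic span, from 7.105 kb (Col10a1) to 468.377 kb (Col25a1). Across the 43 tested genes, Spearman's rho between span and the log2 fold change after NCS was -0.0474 in wild-type and -0.261 in 3KR MEFs. These are descriptions across genes of the same samples, which are not replicates.

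The difference between the genotypes' responses to NCS asks whether collagen genes respond to damage differently in 3KR and wild-type MEFs, which also differed in sex. By the interaction contrast of edgeR, 11 of 43 collagen genes (25.6%) responded differently, 3 with a higher and 8 with a lower log2 fold change in 3KR than in wild-type MEFs, where 4.08% of all tested genes were called (2.07% higher and 2.02% lower). The median over the collagen genes was -0.11 and over all tested genes 0.0039. Without wild-type replicate 3 in both treatments, 21 collagen genes were called, 3 higher and 18 lower, and these included all 11.

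Col8a2 differed most clearly. It had 1273, 1248 and 1266 normalized counts in untreated and 1163, 1093 and 1207 in NCS-treated wild-type samples, and 2905, 2874 and 2888 and 1732, 1793 and 1715 in 3KR samples. It fell in both genotypes, from 1262 to 1154 in the mean of wild-type and from 2889 to 1747 in the mean of 3KR samples (difference of log2 fold changes -0.59 ± 0.062, edgeR FDR 1.87e-07). Its NCS call in wild-type MEFs was lost in 3 of 14 alternatives, for example without NCS-treated wild-type replicate 2 (FDR 0.19).

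Another 3 genes of the fibril and its surface rose in wild-type and fell in 3KR MEFs. Col3a1 had 285306, 284848 and 293095 normalized counts in untreated and 308975, 307481 and 297189 in treated wild-type samples (log2 fold change 0.08 ± 0.022, edgeR FDR 0.0078), and 327105, 335787 and 320072 and 298992, 304722 and 291608 in 3KR samples (log2 fold change -0.13 ± 0.022, edgeR FDR 1.82e-05). Col12a1 went from 88801, 87928 and 97939.8 to 106370.1, 106524 and 100873 in wild-type (log2 fold change 0.19 ± 0.032, edgeR FDR 1.84e-04) and from 189168, 189534 and 190394 to 169814, 170756 and 168758 in 3KR samples (log2 fold change -0.16 ± 0.032, edgeR FDR 8.28e-04). Col14a1 went from 7771, 7854 and 8040.4 to 8842, 8782 and 8407 (log2 fold change 0.13 ± 0.031, edgeR FDR 0.00138) and from 1566, 1543 and 1539 to 1353, 1374 and 1380.3 (log2 fold change -0.18 ± 0.038, edgeR FDR 4.65e-04). Treated and untreated samples did not overlap in either genotype for the 3 genes. The differences of log2 fold changes were -0.21 ± 0.031 for Col3a1, -0.35 ± 0.046 for Col12a1 and -0.31 ± 0.049 for Col14a1 (edgeR FDR 4.98e-05, 9.90e-05 and 1.04e-04). The rise of Col3a1 in wild-type MEFs lost its call in 2 of 14 alternatives, one of them the fit without NCS-treated wild-type replicate 1 (FDR 0.059). With number and genotype as a replicate block, Col12a1 was called neither in wild-type (FDR 0.068) nor in 3KR MEFs (FDR 0.099), nor for the difference (FDR 0.083).

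Col7a1 and Col5a3 rose in 3KR MEFs and did not pass the test in wild-type MEFs, where their log2 fold changes were 0.08 ± 0.036 and -0.02 ± 0.034. Col7a1 had 5199, 5304 and 5045 normalized counts in untreated and 7071, 7086 and 6901 in treated 3KR samples, which did not overlap, and 16952, 17394 and 18538 and 18020.1, 17955 and 19962 in wild-type samples, which did (difference of log2 fold changes 0.36 ± 0.052, edgeR FDR 4.83e-05). Col5a3 had 19278, 19605 and 19192 and 22471, 23092 and 22659 in 3KR samples, and 13038, 13206 and 13151 and 12218, 12582 and 14094 in wild-type samples, among which treated replicate 3 was high and the other treated samples low (difference 0.26 ± 0.048, edgeR FDR 0.00124). Without wild-type replicate 3 the difference for Col5a3 was 0.32 ± 0.025. The remaining called genes were Col2a1 (0.17 ± 0.044), Col11a1 (-0.22 ± 0.041), Col6a3 (-0.14 ± 0.034), Col28a1 (-0.47 ± 0.11) and Col9a3 (-0.60 ± 0.17). Of these, Col9a3 lost its call in 8 of 19 alternatives and Col2a1 and Col6a3 in 6 each, all by leaving out a single sample, and Col11a1 and Col28a1 kept theirs in all 19.

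The enzymes, receptors and partners of collagen are given as counts beside these results. Of 34 genes of collagen biosynthesis, 31 were tested, and 15 were higher and 10 lower in untreated 3KR MEFs, where 45.7% of all tested genes were called. Adamts2, the protease that removes the N-propeptide of type I procollagen, had 4063, 4043 and 4371 normalized counts in wild-type and 9061, 8902 and 8945 in 3KR samples (log2 fold change 1.10 ± 0.036, edgeR FDR 6.66e-22). Plod2, the lysyl hydroxylase of the telopeptides, was lower at 5301, 5065 and 5322 against 10155, 9541 and 10216 (log2 fold change -0.94 ± 0.033, edgeR FDR 3.26e-21), as was the crosslinking enzyme Loxl2 (-0.51 ± 0.025). After NCS 13 were higher and 10 lower in 3KR MEFs, beside 46.3% of all tested genes called. The NCS response called 6 higher and 2 lower in wild-type MEFs and 7 higher and 4 lower in 3KR MEFs, counts near the 27.1% and 31% called over all tested genes. Its difference between genotypes called 1 of the 31 higher, Loxl3 (0.24 ± 0.05), and 1 lower, P4ha3 (-0.17 ± 0.043), where 4.08% of all tested genes were called. The lists of this paragraph and the next were chosen by hand, and the medians of the untreated genotype comparison were 0.066 for biosynthesis and -0.00036 over all tested genes.

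Of 10 collagen receptor genes 9 were tested, 3 higher and 4 lower in untreated 3KR MEFs, beside the same 45.7% of all tested genes. Itga2, the alpha2 integrin chain that binds type I collagen, had 721, 664 and 659 and 154, 179 and 175 normalized counts (log2 fold change -2.02 ± 0.082, edgeR FDR 1.98e-19), and its partner Itgb1 (-0.56 ± 0.022) and the collagen-binding kinase Ddr1 (-0.40 ± 0.036) were lower too. After NCS 5 were lower and the other 4 were not called (46.3% of all tested genes). NCS raised 4, with the other 5 not called, in wild-type MEFs (27.1%), and it raised 3 and lowered 2 in 3KR MEFs (31%). The integrin chains Itga11 (-0.20 ± 0.035) and Itga1 (-0.29 ± 0.069) were called for the difference in response (4.08%).

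Of 14 collagen-binding proteoglycans and partners 13 were tested, and 10 were higher and 1 lower in untreated 3KR MEFs (45.7% of all tested genes were called), with a median log2 fold change of 0.75. Summed over the 14 genes, however, the level was lower in 3KR MEFs. The sums were 973547 to 999604 normalized counts in untreated wild-type and 968421 to 970878 in untreated 3KR samples. With NCS they were 1009818 to 1063323 in wild-type and 938124 to 956768 in 3KR samples. Prelp, a leucine-rich repeat protein that anchors basement membranes to connective tissue, had 365, 328 and 312 normalized counts in wild-type and 2257, 2295 and 2274 in 3KR samples (log2 fold change 2.75 ± 0.064, edgeR FDR 7.36e-26). Lum, the fibril-spacing proteoglycan lumican, had 2185, 2204 and 2115 and 5602, 5429 and 5453 (log2 fold change 1.34 ± 0.039, edgeR FDR 3.73e-23), and Podn was higher by 1.32 on the log2 scale. After NCS 9 were higher and 2 lower (46.3% of all tested genes). In wild-type MEFs NCS raised 7 of the 13 and the other 6 were not called (27.1% of all tested genes, 14.5% up), and in 3KR MEFs it lowered 9 and the other 4 were not called (31% of all tested genes, 15.2% down). Ogn, the proteoglycan osteoglycin, went from 6397, 6355 and 6550.1 to 7524, 7642 and 7259 in wild-type and from 9019, 8887 and 8821 to 7756, 7551 and 7404 in 3KR samples, and the difference of its responses was -0.45 ± 0.044 (edgeR FDR 7.17e-08). In all, 7 of the 13 had a lower response in 3KR MEFs and the other 6 were not called, where 4.08% of all tested genes were called.

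Markers of bone and tendon cells, which also make collagen, were measured as well. Of 7 osteoblast markers 5 were tested and 3 were higher in untreated 3KR MEFs, where 45.7% of all tested genes were called (22.1% higher). The 3 were Sp7 (1.64 ± 0.13), Alpl (1.84 ± 0.21) and Runx2 (0.38 ± 0.051). The bone matrix genes Bglap and Ibsp were at or under 3 counts in every sample. Of 4 tendon markers 2 were higher and 2 lower (45.7% of all tested genes were called). The lowest p were those of Scx, which was higher (1.54 ± 0.098), Egr1 and Tnmd. Without treatment the sum of the 4 was lower in 3KR MEFs, at 11719 to 11757 normalized counts in wild-type and 8683 to 8922 in 3KR samples. After NCS the sums overlapped, at 7235 to 7914 in wild-type and 7657 to 8042 in 3KR samples. Their part in the differences of collagen genes was not tested.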

How the data were processed

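RNA was sequenced from stranded mRNA libraries of 12 samples, and the authors deposited raw read counts per Ensembl gene, 1 table per sample, without normalization. Per the labels, TopHat, HTSeq and DESeq were used with the mouse genome build mm9. Versions and the strand setting of the counting are not given in the sources used here. Positions, symbols and exon lengths came from GENCODE M21, built on GRCm38. Of the 37991 identifiers, 32919 were found there and 5072 were not. The promoter windows came from a RefSeq table of GRCm38.p6.

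Groups and replicate numbers were taken from the sample labels. Counts were filtered with filterByExpr, scaled by TMM and tested with edgeR 4.0.16 (R 4.3.3) by its robust quasi-likelihood F test. The fit took all 12 samples and had a coefficient for every group, with two-sided p-values adjusted by the Benjamini-Hochberg method (FDR) over 15327 genes at a threshold of 0.05. The biological coefficient of variation was 3.95%. Standard errors of log2 fold changes are their size divided by the square root of F. For normalized counts, each library was divided by its DESeq2 1.42.0 size factor, and RPKM were computed from the raw counts. The steps were tested on simulated data. Limits set by 3 counts cover counting error only.

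All collagen genes were named, each with its values where it passed a test, and from each related list up to 3 genes with the lowest p among those called. The members and lists were chosen with earlier results of these data known. Alternatives were scaling or Wald testing by DESeq2, leaving low counts unfiltered, requiring 10 counts in each sample, fitting the compared samples alone, replicate blocks, each sample left out, wild-type replicate 3 left out in both treatments and, for levels, TMM, library totals and, added after seeing the data, the length of the longest principal transcript.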

Additional observations from a re-analysis of the deposited data

Results flagged for a closer look

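The response to NCS differed between the genotypes, by the interaction contrast of edgeR (FDR under 0.05), for 11 collagen genes. As differences of log2 fold changes, 3KR minus wild-type, 3 were positive: Col7a1 (0.36), Col5a3 (0.26) and Col2a1 (0.17). The other 8 were negative: Col9a3 (-0.60), Col8a2 (-0.59), Col28a1 (-0.47), Col12a1 (-0.35), Col14a1 (-0.31), Col11a1 (-0.22), Col3a1 (-0.21) and Col6a3 (-0.14). Col3a1, Col12a1 and Col14a1 were called upward in wild-type and downward in 3KR MEFs, but with number and genotype as a replicate block Col12a1 lost these calls and that for the difference (FDR 0.068, 0.099 and 0.083). Without wild-type replicate 3 in both treatments the values for Col12a1 and Col5a3 were -0.43 ± 0.016 and 0.32 ± 0.025, and all 11 stayed called.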

How the results depend on the processing

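Both genotype comparisons gave 32 to 34 called collagen genes under every alternative run, with 33 in the reported fits. The NCS response in wild-type MEFs gave 9 called genes (7 up, 2 down) with only the 6 wild-type samples in the fit, against 15, and 22 without wild-type replicate 3 in both treatments. The difference in response gave 21 without that replicate, against 11. The causes were not tested. Leaving out single samples gave 10 to 17 genes in wild-type MEFs, 14 to 16 in 3KR MEFs and 8 to 16 for the difference.

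Of genes not called for NCS, some changed sign. In wild-type MEFs, over single samples left out, Col5a3 ranged from -0.088 to 0.016 and Col6a2 from -0.00063 to 0.061. In 3KR MEFs, Col1a1 ranged from -0.0124 to 0.033 and Col1a2 from -0.0088 to 0.016, and without a filter on low counts Col1a2 was at -0.00080. No called gene was reversed in any alternative run.

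Deviations from group means were correlated over 15327 genes between same-numbered samples. Between untreated and NCS-treated samples they correlated at 0.0458 to 0.0973 in wild-type MEFs, highest for replicate 3, and at 0.000644 to 0.0164 in 3KR MEFs. Across genotypes the values were -0.00602 to 0.0185. The main fits did not take the numbers as pairs, although 9 of 12 samples correlated best with their own number in the other treatment. Whether a number marks 1 culture is not settled by this. With the replicate number as a block, 34 and 33 collagen genes were called between genotypes without treatment and after NCS, 17 and 16 for NCS in wild-type and 3KR MEFs, and 12 for the difference. With number and genotype as a block, 19, 19 and 16 were called in the last 3 comparisons, but Col12a1 in none of them (FDR 0.068, 0.099 and 0.083). Scaling by library total moved 36 of 176 levels by more than their SD, TMM moved 1, and the principal length moved 31 of 44.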
